A study of Homo sapiens with 6 samples.

Results

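Alu and SVA are retrotransposons, repeats that copy themselves into the genome through RNA. They were followed here in H1 human embryonic stem cells, an established pluripotent line. The members were all sequence names equal to ALU or starting with SVA, which gave 3 names (ALU, SVA_A and SVA2) of the 1047 measured. All cells carried an inducible short hairpin RNA against EXOSC3, a subunit of the RNA exosome, and came from passages 40 to 60. Doxycycline (dox) switches the hairpin on. The PB line held an empty vector, and 2 EXOSC3r clones each held an EXOSC3 transgene that the hairpin does not target. Each of these 3 lines gave 1 library without and 1 with dox, so PB had n = 1 in each arm and EXOSC3r had n = 2 clones. Each rescue line is a single clone, no line lacked the hairpin, and whether separate cultures were used is not given in the sources used here. EXOSC3 itself and the marker genes of pluripotent cells were not analysed here, so neither the knockdown nor the cell type was checked.

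Alu elements are short, primate-specific repeats that descend from 7SL RNA, the RNA of the signal recognition particle. They have their own RNA polymerase III promoter, and many copies also lie in the introns and untranslated ends of genes, where they are transcribed as part of the gene. SVA elements are younger and composite: they join an Alu-like stretch, a tandem repeat and a piece derived from the endogenous retrovirus HERVK with its LTR5 promoter. Neither encodes a protein for its own movement, and both borrow the machinery of L1, the active autonomous retrotransposon of the human genome. The RNA exosome degrades RNA from its 3′ end and removes many short-lived nuclear transcripts.

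Each name stands for a consensus sequence and has no single genomic position. ALU was 312 bases long, SVA_A 1640 and SVA2 217. Which parts of a composite SVA each SVA entry holds was not checked, so SVA2 need not be a shorter form of SVA_A. Reads from a free Alu RNA and reads from an Alu inside a gene's transcript are counted alike. The table held 0 other names of the Alu and 7SL lineage, so Alu subfamilies were not resolved. Reads from the Alu-like stretch of SVA could be divided between ALU and an SVA entry, and how many were was not tested. Estimated counts given to the 1047 names summed to between 3745262 and 5260196 per library, which is not sequencing depth. In bulk RNA, a change in the number of cells of a type and a change in RNA per cell cannot be told apart.

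Alu took the largest part of the counts in every library. In PB cells it had 1675860 of 4493006 counts, or 37.3% (95% Clopper-Pearson interval 37.25 to 37.34, counting error only), and with dox 1506065 of 4565796 counts, or 32.99% (32.94 to 33.03). In EXOSC3r clone 1 it had 2098764 counts, 45.4% (45.37 to 45.47), and with dox 2762717 counts, 52.5% (52.48 to 52.56). In EXOSC3r clone 2 it had 1648829 counts, 41.8% (41.78 to 41.88), and with dox 1503152 counts, 40.1% (40.09 to 40.18). The 2 PB libraries were thus the lowest and the 2 libraries of clone 1 the highest. In unscaled counts, Alu and the sum of the other names changed in opposite directions with dox in PB cells and clone 1. In clone 2 both fell. These raw changes also follow the total of each library, so their signs do not show how the RNA changed. With dox the total of clone 1 rose by 639425 counts, made up of 663953 more Alu counts and a change of -24528 in the others. In PB cells Alu changed by -169795 counts while the others changed by 242585, and in clone 2 the changes were -145677 and -51048.

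**Figure D1:**
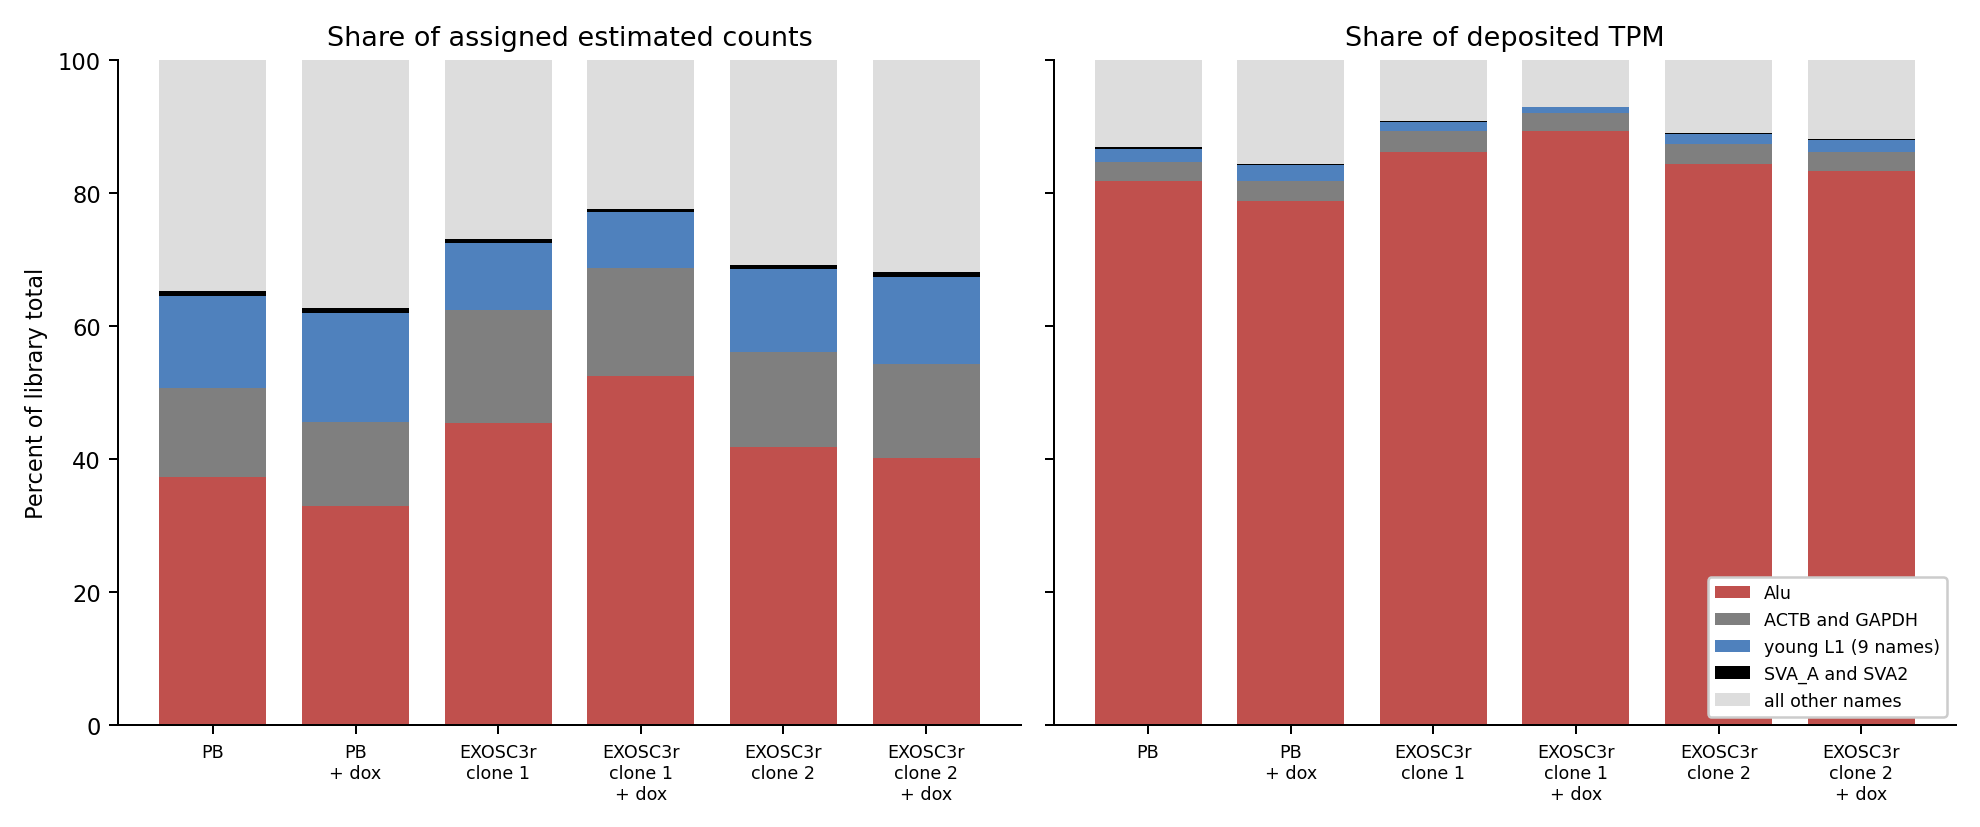
Stacked bars show what each of the 6 libraries consists of, as percent of assigned estimated counts (left) and of deposited TPM (right), for Alu, ACTB with GAPDH, 9 young L1 names, the SVA names and all others. Alu takes 32.99% to 52.5% of counts but 78.8% to 89.3% of TPM, and the SVA band is barely visible on the right.

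The Alu share did not change in one direction with dox. It changed by -4.31 percentage points in PB cells, by 7.10 in clone 1 and by -1.69 in clone 2. The mean over the 3 lines was 0.365 ± 5.98 points (SD, n = 3 lines), with an exact two-sided sign-flip permutation p of 1, where 3 lines cannot give a p below 0.25. Clone 1 decides the sign of this mean: without it the mean is -3.00 points. Pooling the lines mixes cells with and without the rescue transgene, so the lines are also given apart throughout.

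Ratios of counts within a library do not depend on how libraries are scaled. There were 2.79 Alu counts per summed ACTB and GAPDH count in PB cells and 2.61 with dox. ACTB (cytoskeletal actin) and GAPDH (a glycolytic enzyme) are the only RefSeq gene transcripts in the table. The ratio was 2.67 in clone 1 and 3.25 with dox, and 2.92 in clone 2 and 2.85 with dox. The highest value was 1.25 times the lowest. Relative to SVA_A, Alu counts moved much more: 51.3 per SVA_A count in PB cells and 40.2 with dox, 77.5 and 109 in clone 1, and 65.6 and 59.2 in clone 2. That is a 2.72-fold range over the 6 libraries. Relative to L1HS, the youngest human L1 group, the ratio was 6.05 in PB cells and 4.18 with dox, 9.90 and 13.3 in clone 1, and 7.35 and 6.77 in clone 2, a 3.17-fold range. Alu thus stayed closer in proportion to ACTB and GAPDH than to SVA_A or L1HS, as a description of these 6 libraries. SVA_A and L1HS kept a narrow ratio to each other, between 0.104 and 0.128 counts of SVA_A per count of L1HS, a 1.23-fold range.

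**Figure D2:**
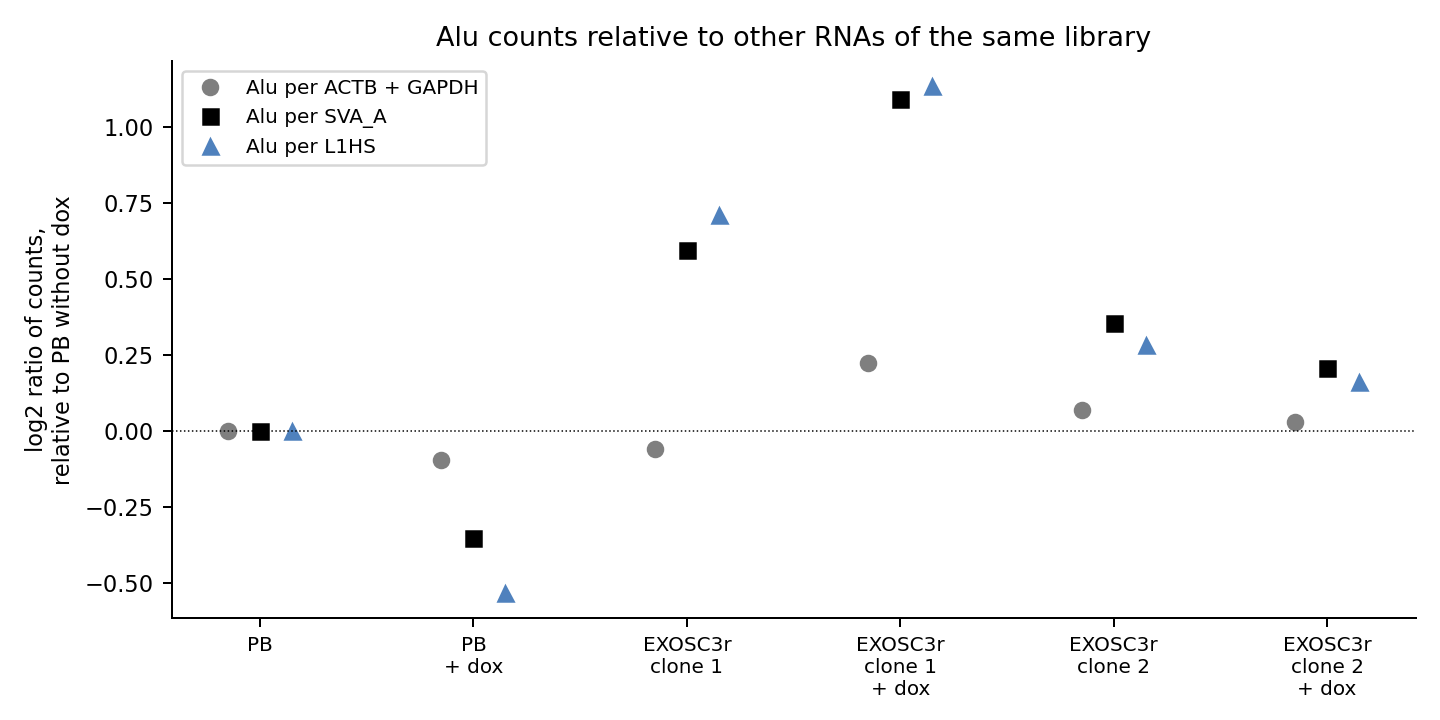
Each point is the log2 ratio of Alu counts to the counts of ACTB with GAPDH (circles), SVA_A (squares) or L1HS (triangles) in 1 library, relative to PB cells without dox. The circles stay near 0 in all 6 libraries, while squares and triangles are low in PB cells with dox and highest in EXOSC3r clone 1 with dox.

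SVA_A, the main SVA entry, had 32648 counts in PB cells and 37441 with dox, 27097 in clone 1 and 25272 with dox, and 25144 in clone 2 and 25376 with dox. As a share of all assigned counts it took 0.727% in PB cells (0.719 to 0.735) and 0.820% with dox (0.812 to 0.828). It took 0.586% in clone 1 (0.579 to 0.593) and 0.480% with dox (0.475 to 0.486), and 0.638% in clone 2 (0.630 to 0.646) and 0.678% with dox (0.669 to 0.686). This order is the reverse of the order of the Alu shares in all 6 libraries. Much of that spread was absent when counts given to Alu were left out of the denominator. SVA_A then took 1.16% in PB cells and 1.22% with dox, 1.07% and 1.01% in clone 1, and 1.10% and 1.13% in clone 2.

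SVA2, the shorter entry, was rare: 511 counts in PB cells and 559 with dox, 506 in clone 1 and 554 with dox, and 410 in clone 2 and 390 with dox. Of the counts not given to Alu it took 0.0181% in PB cells and 0.0183% with dox, 0.0201% and 0.0222% in clone 1, and 0.0179% and 0.0174% in clone 2. Clone 1 was highest and clone 2 lowest, with PB cells between them. Here the SVA names differed, since on this measure SVA_A was lowest in clone 1. There were between 45.6 and 67.0 SVA_A counts per SVA2 count, the lowest in clone 1 with dox and the highest in PB cells with dox.

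Levels per length can be compared between names on the TPM scale (reads per base of effective length, scaled to a fixed total). Alu ranked 1 of 1047 names in all 6 libraries, above GAPDH and ACTB. SVA_A ranked between 28 and 31 and SVA2 between 65 and 85. Per length, Alu was between 437 and 1203 times SVA_A, and SVA_A was between 2.46 and 3.62 times SVA2 and between 0.418 and 0.514 times L1HS. Effective length was between 133.0 and 136.7 of 312 bases for Alu and between 78.5 and 80.7 of 217 for SVA2. For SVA_A it was between 1464 and 1471 of 1640 bases. Short names are thus raised relative to SVA_A, and these ratios and ranks by full length were not computed.

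The 3 names were then compared between groups with edgeR's quasi-likelihood test on all 699 names with at least 10 counts in at least 1 library. CPM below means counts scaled to a common library total after TMM scaling, which brings the typical name to the same level in all libraries. The spread comes from the 2 clones alone, with 2 residual degrees of freedom. For each name edgeR draws this spread towards that of the other tested names, so errors and p-values rest partly on other names. The p-values measure the spread between clones, which may be technical. The lone PB libraries are assumed to vary like a clone. With dox in PB cells, 0 of the 3 members passed at an adjusted p of 0.05, against 0.858% of all names. Alu stood at 327007 CPM without and 271963 CPM with dox, which edgeR fitted as a log2 change of -0.27 ± 0.43 (SE, adjusted p = 0.9999). SVA_A went from 6371 to 6761 CPM, a log2 change of 0.09 ± 0.11, and SVA2 from 99.7 to 100.9 CPM, a log2 change of 0.02 ± 0.29. None of these changes was larger than its error.

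With dox in EXOSC3r cells, 0 of the 3 passed, against 0.143% of all names (1 name, and 9 with the line as a block). In clone 1 Alu stood at 519948 CPM without and 706186 CPM with dox, and in clone 2 at 412250 and 366106 CPM. The clones moved in opposite directions, and the fitted log2 change was 0.20 ± 0.31 (edgeR, adjusted p = 0.9999). It was -0.35 ± 0.19 without the clone 1 library with dox and 0.60 ± 0.18 without the clone 2 library with dox. SVA_A stood at 6713 and 6460 CPM in clone 1 and at 6287 and 6181 CPM in clone 2, a fitted log2 change of -0.04 ± 0.08. SVA2 stood at 125 and 142 CPM in clone 1 and at 102.5 and 94.99 CPM in clone 2, a fitted log2 change of 0.05 ± 0.20. SVA2 also moved in opposite directions in the clones, and its fitted change was -0.27 without the clone 1 library with dox and 0.31 without the clone 2 library with dox.

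The difference in dox response between EXOSC3r and PB cells was tested by an interaction term. By edgeR 0 of the 3 passed and 0% of all names did, with 9 of 699 at an unadjusted p under 0.05, while DESeq2 called 3 names and the fit with the line as a block also 3. The difference of log2 changes, EXOSC3r minus PB, was 0.47 ± 0.53 for Alu, -0.13 ± 0.13 for SVA_A and 0.04 ± 0.35 for SVA2 (edgeR, adjusted p = 0.9997 for each). DESeq2 called 0 of the 3 members here and in each of the other 4 comparisons, and by edgeR 1 member had an unadjusted p under 0.05 (Alu, EXOSC3r minus PB with dox).

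**Figure D3:**
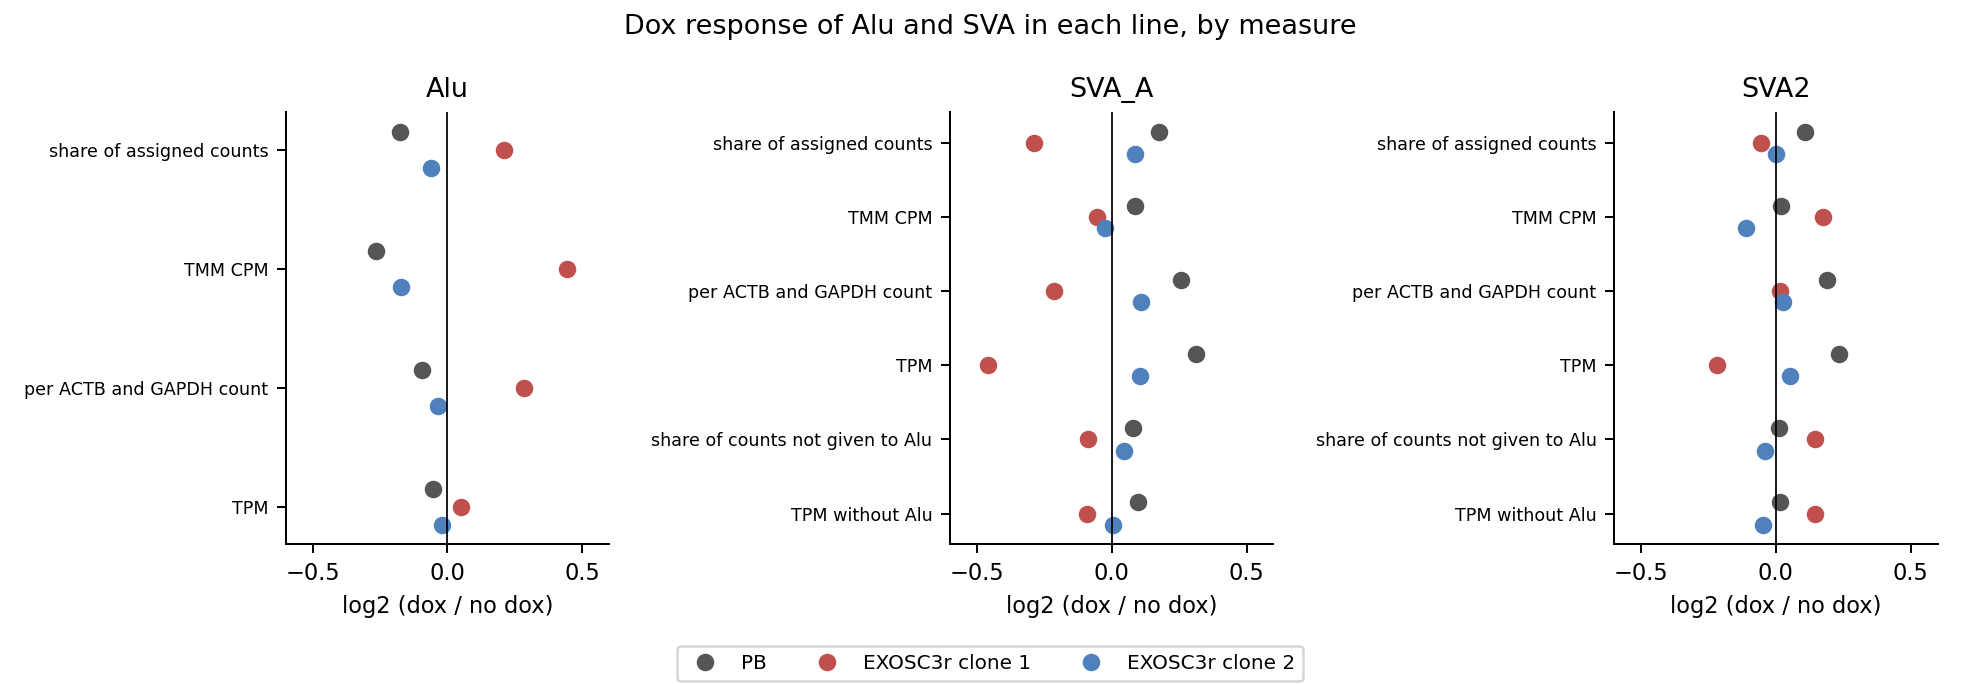
Each point is the log2 ratio of a dox library to its no-dox library in 1 line (grey PB, red EXOSC3r clone 1, blue EXOSC3r clone 2), for Alu, SVA_A and SVA2 on several measures. Alu is higher with dox in clone 1 only, on all 4 measures, and the spread of SVA_A over the lines is widest in TPM, from -0.46 to 0.31, and narrow once Alu is left out.

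Alu stood higher in both EXOSC3r clones than in PB cells, with and without dox, in CPM and as a share of counts, but did not pass after adjustment; per ACTB and GAPDH count, clone 1 without dox was lower than PB cells (2.67 against 2.79). With dox it stood at 706186 CPM in clone 1 and 366106 CPM in clone 2, against 271963 CPM in PB cells. The log2 difference was 0.98 ± 0.39 (edgeR, unadjusted p = 0.045, adjusted p = 0.61), and 0 of the 3 members passed, against 1.00% of all names (7 names, and 22 with the line as a block). The block gives each line its own level, so its error leaves out differences between the clones and has 1 residual degree of freedom. Its 22 calls therefore make no allowance for clones that differ. The size of the Alu difference rests on clone 1: without the clone 2 library with dox it was 1.38, and without the clone 1 library with dox 0.42. Each of these sets 1 clone library against 1 PB library with dox, so only the size is given. These RefSeq transcripts stood higher in the same comparison, ACTB by 0.67 ± 0.37 and GAPDH by 0.77 ± 0.32 on the log2 scale. With their summed counts as the library size, the Alu difference was 0.22 ± 0.25. The size thus rests on the scaling too: it was 0.49 ± 0.36 with total counts and 0.13 ± 0.22 in limma on log2(TPM + 1). The part of ACTB and GAPDH in the difference was not tested.

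Without dox, Alu stood at 519948 and 412250 CPM in the clones against 327007 in PB cells, which gives a log2 difference of 0.51 ± 0.38 (edgeR, adjusted p = 0.97). With ACTB and GAPDH as the library size this was 0.01 ± 0.25. No member passed, and 0% of all names did, with 16 of 699 at an unadjusted p under 0.05. SVA_A differed between EXOSC3r and PB cells by 0.03 ± 0.10 without and -0.10 ± 0.09 with dox, and SVA2 by 0.19 ± 0.25 and 0.23 ± 0.25. These are smaller than or close to their errors. The PB libraries serve both in these comparisons and in the dox response of PB cells, so the comparisons are not independent.

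**Figure D4:**
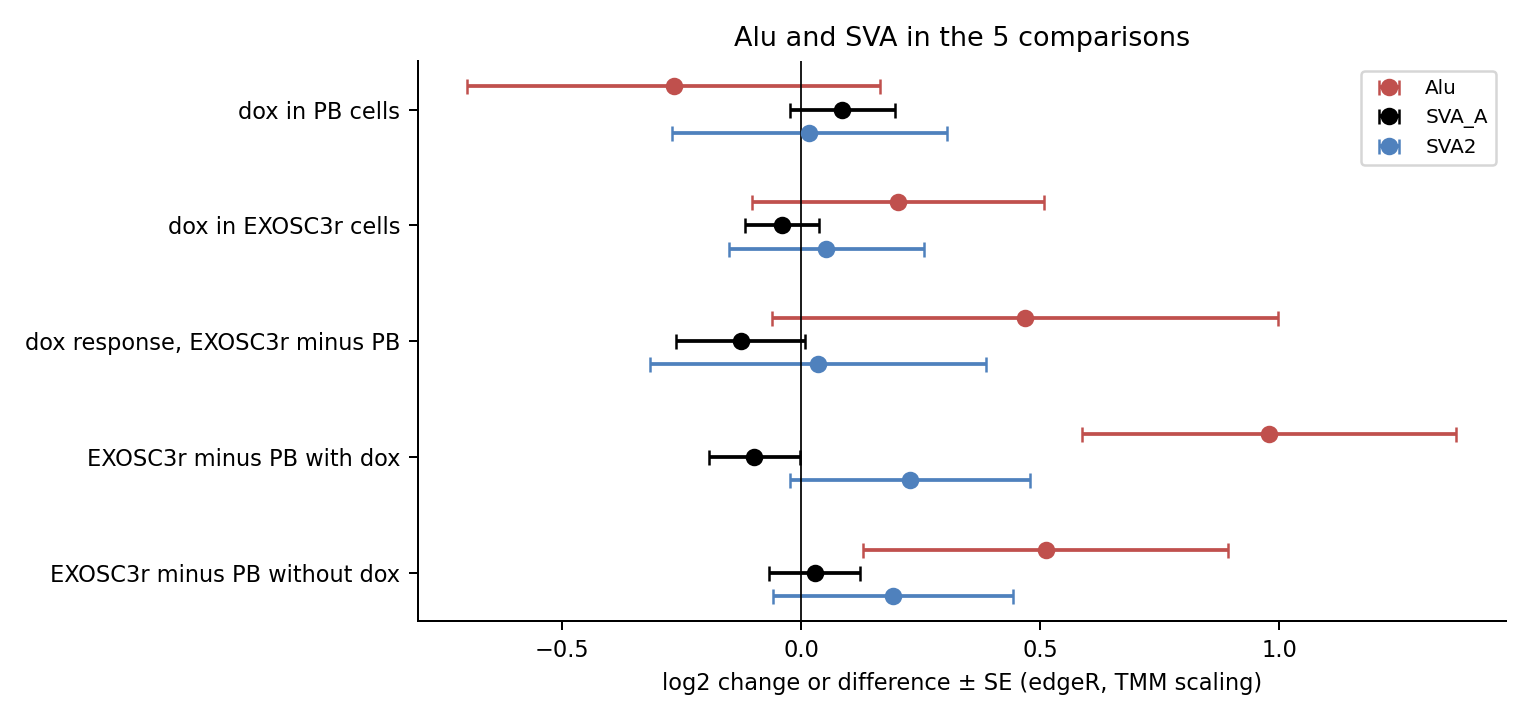
Points show the fitted log2 change or difference of Alu (red), SVA_A (black) and SVA2 (blue) in the 5 comparisons, with bars of 1 standard error from edgeR. Alu has wide bars and its value farthest from 0, 0.98 ± 0.39, is EXOSC3r minus PB with dox, while SVA_A stays between -0.13 and 0.09.

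The table as deposited gives TPM over these 1047 names alone, so the part Alu takes sets the part left for all other names. Alu took 81.8% of TPM in PB cells and 78.8% with dox, 86.2% in clone 1 and 89.3% with dox, and 84.4% in clone 2 and 83.3% with dox. These shares are between 1.70 and 2.39 times its shares of counts. TPM divides by effective length, which was between 133.0 and 136.7 bases for Alu, whereas the counts of other names lay on sequences with a count-weighted mean effective length between 3014 and 3589 bases. This mean does not itself yield the TPM shares, because TPM divides name by name and shorter names weigh more. The median effective length of names with counts was between 496 and 502 bases. Divided by the full length of each sequence in place of the effective length, Alu would take between 70.1% and 83.4%.

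What Alu left for the other names was 18.2% of TPM in PB cells and 21.2% with dox, 13.8% in clone 1 and 10.7% with dox, and 15.6% in clone 2 and 16.7% with dox. One percentage point more for Alu therefore takes 5.49% off every other name's TPM in PB cells, and 9.34% in clone 1 with dox. The dox response of Alu on the TPM scale looks small, at 0.964-fold in PB cells, 1.04-fold in clone 1 and 0.987-fold in clone 2. The matching shift of every other name was 1.16-fold in PB cells, 0.776-fold in clone 1 and 1.07-fold in clone 2.

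This shift decided the direction of many names. Of 689 other names with counts in all 6 libraries, 573 had a higher TPM with dox in PB cells and 116 a lower one. With Alu left out and the rest rescaled to the same total, 364 were higher and 325 lower. In clone 1, 89 were higher and 600 lower in the deposited TPM, against 305 and 384 without Alu. In clone 2, 521 were higher and 168 lower, against 426 and 263. The direction changed for 209 names (30.3%) in PB cells, 216 (31.3%) in clone 1 and 95 (13.8%) in clone 2. The median log2 change with dox was 0.23 in PB cells, -0.40 in clone 1 and 0.14 in clone 2 in the deposited TPM. Without Alu it was 0.01, -0.03 and 0.04. These are counts and medians within pairs of single libraries, with no test.

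**Figure D5:**
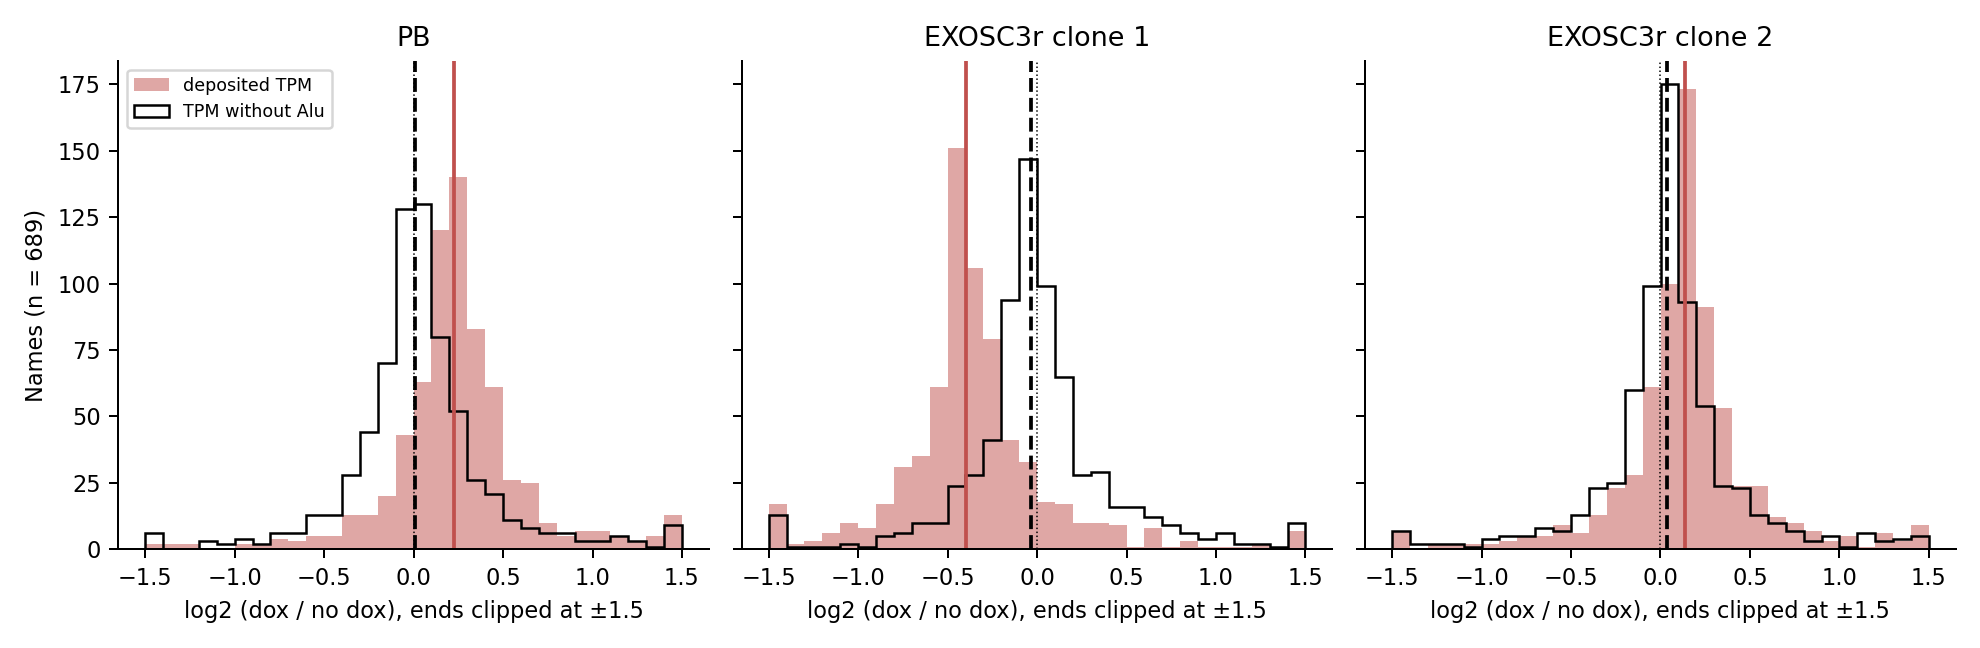
Histograms give the log2 ratio of dox to no-dox TPM for 689 names other than Alu in each line, from the deposited TPM (filled red, red line at the median) and with Alu left out (black outline, dashed line at the median). Leaving out Alu moves the median from 0.23 to 0.01 in PB cells, from -0.40 to -0.03 in clone 1 and from 0.14 to 0.04 in clone 2.

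Single names show the same shift. SVA_A went from 1453 to 1806 TPM with dox in PB cells (1.24-fold), from 1019 to 742 in clone 1 (0.728-fold) and from 1197 to 1286 in clone 2 (1.07-fold). With Alu left out it went from 7984 to 8537 TPM in PB cells (1.07-fold), from 7387 to 6931 in clone 1 (0.938-fold) and from 7679 to 7710 in clone 2 (1.00-fold). SVA2 turned direction in both clones: in clone 1 it went from 351 to 302 TPM as deposited and from 2547 to 2819 TPM without Alu, and in clone 2 from 356 to 368 and from 2283 to 2210. ACTB in clone 1 also turned, from a 0.878-fold to a 1.13-fold change with dox, and GAPDH from 0.825-fold to 1.06-fold. LTR7A, a promoter of the endogenous retrovirus HERVH and the repeat with the highest mean TPM after Alu, turned in PB cells, from 1.03-fold to 0.886-fold. MER85, a DNA transposon, turned in clone 1, from -0.31 to 0.06 on the log2 scale. LTR7A kept its direction in the clones, at 0.568-fold and 0.773-fold as deposited and 0.732-fold and 0.722-fold without Alu, and the clones lay closer together.

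Between lines the shift was largest for clone 1 against PB cells with dox, and for clone 2 against PB cells it was smaller than the dox shift within clone 1. With dox, the other names had 0.506 times the TPM in clone 1 that they had in PB cells through the Alu part alone, and 0.788 times in clone 2. In the deposited TPM 677 of the 689 names were lower in clone 1 than in PB cells with dox, and 514 without Alu. For clone 2 the counts were 620 and 355. TPM without Alu is itself scaled to a fixed total, so other abundant names still affect the part left for the rest. Without Alu, the median log2 difference from PB cells with dox was still -0.23 in clone 1, and -0.01 in clone 2. On this scale with dox, GAPDH stood at 92792 TPM in PB cells and 165503 in clone 1, and ACTB at 47234 and 82883. The part of GAPDH and ACTB in the remaining shift was not tested. Without dox the shifts were 0.758-fold in clone 1 and 0.856-fold in clone 2.

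The Alu part also widened the spread between the clones. With dox, the median name had a TPM higher in clone 2 than in clone 1 by 0.85 on the log2 scale, and by 0.21 with Alu left out. In limma on log2(TPM + 1), the median standard error over the 698 other names was 0.79 for dox in PB cells as deposited and 0.31 without Alu. For EXOSC3r minus PB with dox it was 0.69 and 0.27. This test called 4 of the 698 names for dox in PB cells as deposited and 0 without Alu, 2 and 0 for dox in EXOSC3r cells, 3 and 0 for the difference of responses, 4 and 1 for EXOSC3r minus PB with dox, and 2 and 0 without dox. At an unadjusted p under 0.05 the counts, in the same order, were 15, 12, 15, 44 and 18 names as deposited and 19, 23, 15, 33 and 17 without Alu, so for dox in PB and in EXOSC3r cells they were higher without Alu. limma pools the variance of each name with that of the other names, and it pooled more strongly in the fit as deposited. The 2 fits thus differ in more than the Alu shift, and the part of each in the calls was not tested. TMM scaling sets aside names with extreme ratios, and leaving Alu out of it moved the median of all names by at most 0.0012 on the log2 scale in the 5 comparisons.

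Related repeats were described from lists chosen by descent and machinery. Over the 3 lists edgeR and DESeq2 each made 0 calls in the 5 comparisons, and by edgeR 0 names had an unadjusted p under 0.05. The list called young L1 here (L1HS, L1 and L1PA2 to L1PA8) was chosen because Alu and SVA borrow L1 machinery. Which of its groups make such proteins was not tested. It had 9 tested names, of which 0 passed in any comparison. The summed share of these names in the counts not given to Alu was 22.1% in PB cells and 24.4% with dox, 18.4% and 17.7% in clone 1, and 21.3% and 22.0% in clone 2. Their median log2 difference, EXOSC3r minus PB with dox, was -0.09, against 0.01 for all names, and 9 of 9 were negative, against 48.1% of the 698 names other than Alu. Without dox the median difference was -0.04 with 8 of 9 negative. With dox in PB cells the median change was 0.02 with 4 of 9 negative, and in EXOSC3r cells -0.02 with 8 of 9 negative. The comparisons share libraries and are not independent. Nor are the 9 names, which are related sequences, since reads that fit several names were divided by estimation. All 9 were also set against the same lone PB library in each arm. The median name for EXOSC3r minus PB with dox, L1PA7, had -0.09 ± 0.09 (SE, edgeR). In this sum clone 1 was again lowest and PB cells with dox highest, as for SVA_A. The 5 LTR5 and HERVK names, relatives of the end of SVA, had 0 calls in any comparison, and their share of the counts not given to Alu was 1.64% in PB cells and 1.23% with dox, 1.26% and 1.78% in clone 1, and 1.65% and 1.25% in clone 2. Their order was not that of SVA_A. The other SINEs (MIR names, THER1 and AmnSINE1_HS, old short repeats that do not descend from 7SL) had 5 tested names and 0 calls, and took between 0.0553% and 0.0666% of those counts, highest in clone 1 with dox. Their median log2 change was 0.13 with dox in PB cells (3 of 5 positive) and 0.15 with dox in EXOSC3r cells (5 of 5 positive), against 0.004 and 0.005 for all names. The median names had large errors: MIRb had 0.13 ± 1.25 in PB cells and MIRc 0.15 ± 0.18 in EXOSC3r cells (SE, edgeR). The median difference, EXOSC3r minus PB, was 0.25 with dox (MIRc, ± 0.22) and 0.06 without (MIR, ± 0.15), each with 3 of 5 positive. For the difference of dox responses the median was 0.17 (THER1, ± 0.58), with 4 of 5 positive.

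Among the 252 other names with a mean of at least 100 CPM, those whose log2 CPM followed Alu most closely over the 6 libraries were HSFAU (Pearson r = 0.988), UHG (0.981) and GAPDH (0.980). HSFAU stood at 2420 CPM in PB cells and 2155 with dox, 4653 and 5591 in clone 1, and 3258 and 2999 in clone 2. For SVA2 they were L1M2A_5 (0.981), MER51A (0.976) and ACTB (0.948). For SVA_A they were MER51I (0.979), LTR12E (0.874), the promoter of a HERV9 group, and MER4D_LTR (0.831). These are descriptions over 6 libraries that share lines and TMM factors, and for SVA_A they rest on CPM values that spanned only 6181 to 6761.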

How the data were processed

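RNA of 6 libraries was measured after removal of ribosomal RNA, with stranded total RNA libraries, per the labels' protocols. The submitters' processing notes name bcl2fastq 2.17, Trimmomatic 0.36 and Salmon 0.13.0; of the index, its options and the build nothing is stated, so these are not given in the sources used here. The deposited estimated counts are Salmon's, not normalised, and reads that fit several names were divided by estimation. The deposited TPM values are scaled by the authors over these names alone, per the file headers, which also give lengths in bases.

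Counts were rounded and tested with edgeR 4.0.16 (R 4.3.3): quasi-likelihood test, TMM scaling, 4 group means, 699 of 799 names with any count, Benjamini-Hochberg adjustment at 0.05. A standard error is the log2 change over the square root of F. P-values measure the spread between clones, which edgeR partly shares between names and which may be technical. TPM without Alu divides each value by the total of the other names. ACTB and GAPDH were matched by accession to RefSeq (GRCh38.p14).

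The members, lists, named-name rule (members, ACTB, GAPDH, related lists, the 5 highest other TPM, the 3 most alike in pattern) and alternatives were chosen with earlier results of these data known. The code was tested on simulated data. No library was a copy of another (chi-square per degree of freedom at least 18.9). The dox and no-dox libraries of a clone are 1 line and so pair; deviations of clone 1 from the clone mean correlated across names at r = 0.15 (699 names) and 0.60 (253 names of at least 100 CPM). Alternatives were other scalings, DESeq2 1.42.0, other filters, limma 3.58.1 on log2(TPM + 1) and log2(TPM + 0.1), summed SVA names, a line block and leaving out each clone library.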

Additional observations from a re-analysis of the deposited data

Results flagged for a closer look

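SVA_A was singled out because on the TMM scale it had a positive dox response in PB cells (0.09 ± 0.11 on the log2 scale) and a negative one in both EXOSC3r clones (-0.06 in clone 1 and -0.02 in clone 2). The difference of responses, EXOSC3r minus PB, was -0.13 ± 0.13 (SE, edgeR interaction test, adjusted p = 0.9997) and did not pass. The opposite direction is not seen on every measure: as a share of the counts not given to Alu, SVA_A changed by 0.08 in PB cells, -0.09 in clone 1 and 0.05 in clone 2 on the log2 scale.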

How the results depend on the processing

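Of 225 member values under the alternatives, 195 kept their direction and call, 29 turned direction, none of them called, and 1 became a call. That was Alu, EXOSC3r minus PB with dox, at 1.38 without the clone 2 library with dox. There 1 clone library was set against 1 PB library, so the call carries little weight. The causes were not tested. Scaling by total counts or by ACTB and GAPDH, TPM, and TPM without Alu each moved the median of all names by over 0.1 in at least 1 comparison. The largest move was -0.78 (log2(TPM + 0.1), EXOSC3r minus PB with dox). For TPM without Alu the move was -0.12 in the same comparison.

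SVA2 turned negative for dox in EXOSC3r cells with total counts (-0.028) and TPM (-0.084 with either pseudocount), for the difference of responses with total counts (-0.13), ACTB and GAPDH (-0.17) and TPM (-0.32 with either), for EXOSC3r minus PB with dox (-0.23, -0.48, and -0.58 with either) and without dox (-0.091, -0.31, and -0.27 with either). SVA_A turned negative for EXOSC3r minus PB without dox with total counts (-0.25), ACTB and GAPDH (-0.46), TPM (-0.40 with either) and TPM without Alu (-0.084).

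Leaving out 1 clone library (the clone left is assumed to vary alike), Alu lay between -0.35 and 0.60 for dox in EXOSC3r cells, between -0.089 and 0.87 for the difference of responses, and between 0.42 and 1.38 for EXOSC3r minus PB with dox. SVA2 lay between -0.27 and 0.31, between -0.29 and 0.30, and between -0.092 and 0.49. SVA_A lay between -0.095 and 0.0077 for dox in EXOSC3r cells and between -0.019 and 0.083 for EXOSC3r minus PB without dox.

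Calls over all names were 6 for dox in PB cells, but 2 with total counts, 1 with ACTB and GAPDH, 0 with TPM without Alu, and 0 to 7 without 1 clone library (0 without clone 1 lacking dox). For dox in EXOSC3r cells 1 name passed, but 0 with DESeq2 size factors, total counts, ACTB and GAPDH or TPM without Alu, 2 with Alu left out of TMM, with at least 10 counts in all libraries, with log2(TPM + 1) or with SVA summed, 4 with DESeq2 or log2(TPM + 0.1), and 0 to 2 without 1 library. For the difference of responses 0 passed, but 1 with total counts or ACTB and GAPDH, 2 with the stricter filter, 3 with DESeq2 or log2(TPM + 1), 7 with log2(TPM + 0.1), and 0 to 1 without 1 library. For EXOSC3r minus PB with dox 7 passed, but 3 with total counts, 1 with ACTB and GAPDH or TPM without Alu, 4 with log2(TPM + 1), and 3 to 11 without 1 library (3 without either clone 1 library, 11 without clone 2 with dox). Without dox 0 passed, but 1 with total counts or ACTB and GAPDH, 2 with TPM, and 0 to 1 without 1 library.

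With the line as a replicate block the calls were 9 for dox in EXOSC3r cells, 3 for the difference of responses and 22 for EXOSC3r minus PB with dox. The block changed no call of a member. Alu then had 0.91 ± 0.18 for EXOSC3r minus PB with dox (edgeR, adjusted p = 0.10). That error leaves out differences between the clones, so it is too small for a comparison between lines. The mean dox change of the Alu share, 0.365 points, was -0.32 as a share of TPM, and between -3.00 and 2.70 points in a leave-one-out of each line.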
